A study of Homo sapiens with 9 samples.

Results

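The genes examined here encode the working parts of the lysosome and of autophagy, measured by RNA sequencing in MDA-MB-231 cells, an established triple-negative breast cancer line, after treatment with a Chinese herbal injection. They comprise 49 genes listed by symbol, and all 49 were among the 24344 Ensembl genes of the count table and among the 14195 genes with enough counts to be tested. By role they fall into 6 lysosomal membrane proteins, 6 proteases, 9 proteins of glycan and lipid breakdown, 5 genes of the proton pump, 6 genes of the TFEB/TFE3 axis, 5 genes of autophagosome initiation, 4 genes of ATG conjugation, 4 members of the ATG8 family and 4 autophagy receptors. One group of 3 libraries was treated with Compound Kushen Injection (CKI), which combines extracts of the herbs Kushen and Baituling. Another group of 3 libraries was treated with Kushen injection alone, and the third group of 3 with Baituling injection alone. All cells were grown in DMEM with fetal bovine serum and treated for 48 h, CKI being used at 2 mg/mL of total alkaloids and each single-herb injection at the same dilution as CKI. No untreated library was analysed here, so every difference below is between injections. The labels do not say whether the 3 libraries of a group came from separate cultures, so the p-values measure the spread between libraries, which may be technical.

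Lysosomes are acidic organelles in which hydrolases break down proteins, glycans and lipids, and the vacuolar ATPase (V-ATPase) pumps in the protons that keep them acidic. Macroautophagy delivers cytoplasm to them: the ULK1 and beclin 1 complexes start a membrane, ubiquitin-like conjugation attaches ATG8 proteins such as LC3 to it, and receptors such as p62 (SQSTM1) tie cargo to ATG8 before both are degraded. The transcription factors TFEB and TFE3 activate many of these genes through a palindromic E-box called the CLEAR element, and mTORC1, with the Rag GTPases and folliculin, controls whether TFEB and TFE3 enter the nucleus.

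The CLEAR core, TCACGTGA, was searched on both strands of the RefSeq promoter windows (GRCh38.p14), which run from 250 bases before to 50 bases after each annotated start. A window was found for 39 of the 49 genes; CTSB, PSAP, ATP6V1A, ATP6V1H, RRAGD, ASAH1, ATP6V1B2, UVRAG, HEXA and LAMP2 had none in the table. The core was present for 5 of the 39 genes (12.8%), namely LAMP1, MCOLN1, CTSA, GAA and ATP6V0D1, compared with 321 of 27305 genes with a window (1.18%). The shorter E-box core it contains, CACGTG, was present for 10 of the 39 (25.6%) compared with 8.78% of all genes. None of the 4 members of autophagosome initiation with a window, 4 of ATG conjugation, 4 of the ATG8 family or 4 autophagy receptors held the CLEAR core within these letters. The bases before the start are printed for the 4 genes with the core whose values per library are given below. The regions are chr13:113297149-113297244 for LAMP1, chr19:7522534-7522623 for MCOLN1, chr20:45891245-45891334 for CTSA and chr17:80101491-80101580 for GAA, all on the plus strand, written 5′ to 3′ and ending at the base before the start except for LAMP1, which runs 6 bases further so as to include its second site. Capitals mark the CLEAR core.
LAMP1: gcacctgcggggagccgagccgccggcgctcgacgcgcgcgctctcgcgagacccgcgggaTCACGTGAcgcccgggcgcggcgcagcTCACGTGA
MCOLN1: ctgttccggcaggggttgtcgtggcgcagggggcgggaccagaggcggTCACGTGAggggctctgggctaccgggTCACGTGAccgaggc
CTSA: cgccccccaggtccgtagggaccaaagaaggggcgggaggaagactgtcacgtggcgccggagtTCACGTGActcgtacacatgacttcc
GAA: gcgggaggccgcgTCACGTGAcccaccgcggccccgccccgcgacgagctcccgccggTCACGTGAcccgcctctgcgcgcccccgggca

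Sequencing depth was similar between groups, with totals of 20144628 to 23782071 counts per library, and the least abundant member never fell below 187 counts in a library. The 49 genes took 1.13 to 1.17% of all counts with CKI, 1.06 to 1.11% with Kushen and 0.778 to 0.791% with Baituling. The markers of the line that are expected to be present, VIM, CD44 and KRT18, were abundant in every library, and ESR1 and PGR had at most 4 counts. CDH1, low in this line, was at most 2.82 CPM and EPCAM at most 13.8 CPM. VIM, which encodes the mesenchymal filament vimentin, was itself between 336 and 364 CPM (counts scaled to a common library size) with CKI, between 563 and 599 CPM with Kushen, and between 2014 and 2116 CPM with Baituling. Defining genes of leukocytes and hepatocytes (PTPRC, ALB, AFP, TTR) had at most 9 counts. KRT5 and KRT14, keratins of the epidermoid line A431 that the study also cultured, stood apart in Baituling replicates 2 and 3. KRT5 had 93 and 124 counts there and 0 in the other 7 libraries, and KRT14 had 50 and 40 counts there and at most 3 elsewhere; their part in the results was not tested, and counts with Baituling replicate 1 as the only Baituling library are given for both lists of genes compared with Baituling. In RNA from whole cultures, fewer cells expressing a gene and less RNA per cell cannot be told apart.

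Most of these genes were more highly expressed with CKI and with Kushen than with Baituling, and SQSTM1, encoding the receptor p62, differed most. A gene is called higher or lower where its edgeR quasi-likelihood test gave a Benjamini-Hochberg adjusted p under 0.05 over all 14195 genes, and past the fold threshold where its log2 fold change was also above 1 or below -1. With CKI compared to Baituling, 33 of the 49 genes were higher, 9 were lower and 7 did not pass, where 39.1% of all genes tested were higher and 37.0% were lower. Past the fold threshold were 4 genes, SQSTM1, ATP6V1A, NEU1 and GLA, all higher (all genes: 11.2% higher and 7.91% lower). The median log2 fold change was 0.29 over the 49 genes and 0.03 over all genes. With Kushen compared to Baituling, 26 genes were higher, 9 were lower and 14 did not pass (all genes: 35.6% higher and 36.1% lower), and SQSTM1 alone was past the fold threshold (all genes: 8.50% higher and 6.73% lower). The median was 0.19 against 0.02 over all genes. These comparisons share the Baituling libraries. Between CKI and Kushen the differences were smaller: 17 genes were higher with CKI, 7 were lower and 25 did not pass (all genes: 19.6% higher and 20.2% lower), with a median of 0.05 against 0.01. Log2 fold changes ran from -0.55 to 0.50, so that 0 genes passed the fold threshold in edgeR, as in DESeq2 and limma-voom (all genes: 1.70% higher and 0.197% lower).

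**Figure D1:**
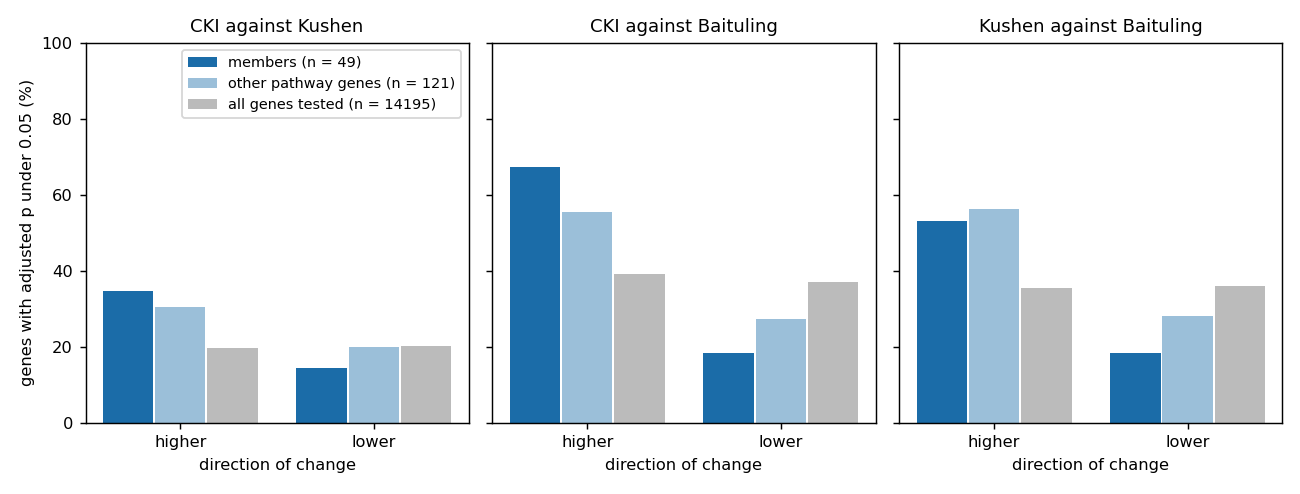
Bars show the percentage of genes with an adjusted p under 0.05 in each direction (y axis, %) for the 49 genes, 121 other lysosome and autophagy genes and all 14195 genes tested, in a panel for each comparison. In all 3 comparisons the bars for higher genes stood above those of all genes, and the bars for lower genes of the 49 stood below.

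The groups did not overlap for 26 of the 49 genes between CKI and Kushen (all genes: 49.5%), for 40 between CKI and Baituling (all genes: 78.3%) and for 32 between Kushen and Baituling (all genes: 73.1%). The number of genes called lower depended on scaling, since the trimmed mean of M values (TMM) moved CKI and Baituling libraries in opposite directions. Scaled to library totals instead, the centre of all genes shifted by 0.29 for CKI and 0.21 for Kushen against Baituling on the log2 scale, and the 49 genes gave 40 higher and 4 lower for CKI (90.9% of those that passed, compared with 78.6% after TMM) and 37 higher and 2 lower for Kushen (94.9%, compared with 74.3%). Past the fold threshold were then 13 genes for CKI and 6 for Kushen, for which no share of all genes is given. The medians were 0.58 and 0.40, next to 0.32 and 0.23 over all genes. Over all genes that passed, the share higher went from 51.4% to 71.6% and from 49.6% to 67.3%, and for CKI against Kushen from 49.2% to 69.7%. In that last comparison the 49 genes gave 25 higher and 6 lower with library totals. The counts that follow have no share of all genes beside them. With Baituling replicate 1 as the only Baituling library, 28 genes were higher and 10 lower with CKI, of which 2, SQSTM1 and ATP6V1A, were past the fold threshold, and 23 were higher and 8 lower with Kushen.

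**Figure D2:**
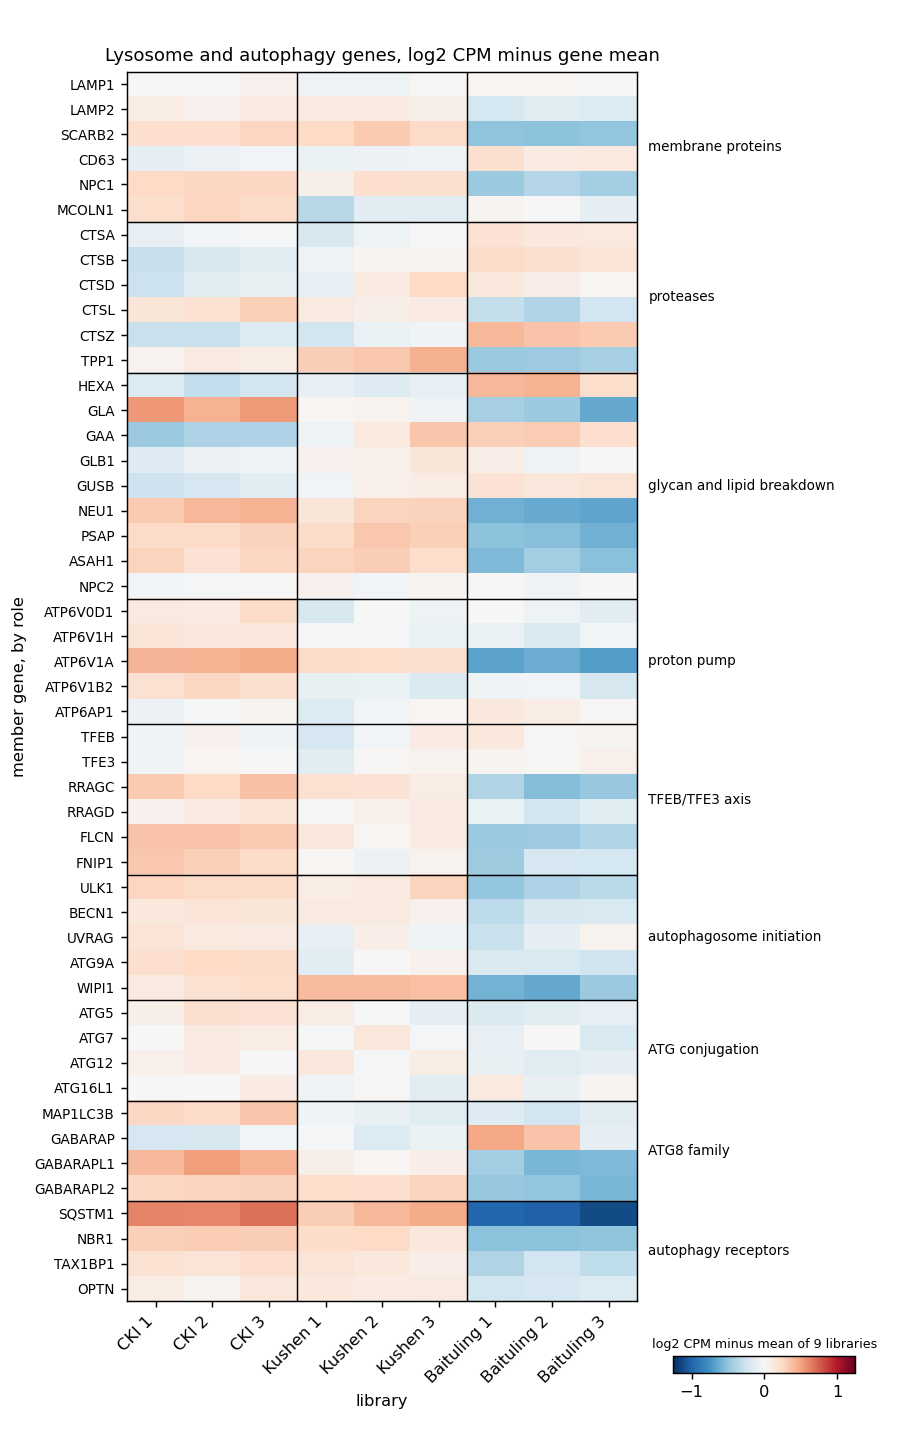
Colour gives the log2 CPM of each gene (rows, by role) in each library (columns) minus its mean over the 9 libraries. The Baituling columns are blue for SQSTM1, ATP6V1A, NEU1 and PSAP and red for CTSZ, HEXA and, in 2 of 3 libraries, GABARAP, whereas LAMP1, NPC2 and TFE3 are pale throughout.

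In terms of level per transcript length, the most abundant genes encoded lysosomal proteins. On the scale of CPM per kilobase of exon, means with CKI were 611 ± 13.0 for PSAP, 539.5 ± 14.8 for CD63 and 479 ± 31.1 for CTSD (SD, n = 3). On the same scale ULK1 stood at 14.6 ± 0.184, ATG5 at 13.6 ± 0.602 and ATG7, the E1-like enzyme of ATG conjugation and the lowest of the 49 over all libraries, at 5.15 ± 0.216. SQSTM1 was the one autophagy gene among the 10 most abundant per length. Its level was 308 ± 8.61 with CKI, 260.0 ± 14.3 with Kushen and 96.2 ± 4.82 with Baituling.

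The transcription factors themselves passed in no comparison. TFEB had 35.2, 37.8 and 35.3 CPM with CKI, 31.5, 35.7 and 39.0 CPM with Kushen injection and 40.1, 36.7 and 37.4 CPM with Baituling injection. The groups overlapped, and log2 fold changes were -0.08 ± 0.07 (SE) for CKI against Baituling, with a 95% interval of -0.22 to 0.07, and -0.11 ± 0.07 for Kushen against Baituling, with an interval of -0.25 to 0.04. Without Kushen replicate 3 the latter passed (log2 fold change -0.17, edgeR adjusted p = 0.0349). TFE3 had 148, 155 and 154 CPM with CKI, 139, 155 and 158 CPM with Kushen injection and 156, 154 and 159.6 CPM with Baituling injection. It likewise passed in no comparison (edgeR adjusted p = 0.439 for CKI and 0.279 for Kushen against Baituling), and its interval for CKI against Baituling was -0.14 to 0.06. With library totals both factors came out higher with CKI than with Baituling, by 0.21 for TFEB and 0.25 for TFE3 on the log2 scale, and TFE3 also with Kushen, by 0.15. The other 4 genes of this axis act on the localisation of TFEB and TFE3. All 4 were higher with CKI and with Kushen than with Baituling, where 39.1% and 35.6% of all genes were higher. The 15 further genes of this axis that were tested split, with 7 higher and 6 lower for CKI and 6 higher and 7 lower for Kushen. RRAGC and RRAGD encode Rag GTPases, which bring mTORC1 and TFEB to the lysosome. RRAGC was 1.71-fold higher with CKI than with Baituling (log2 fold change 0.77 ± 0.05) and 1.53-fold higher with Kushen, and RRAGD was 1.20-fold and 1.15-fold higher, both of which were lost with Baituling replicate 1 alone (adjusted p = 0.0854 and 0.247). Folliculin (FLCN) and its partner FNIP1 stimulate GTP hydrolysis by RagC and RagD. FLCN was 1.71-fold higher with CKI and 1.44-fold higher with Kushen, and FNIP1 1.499-fold and 1.22-fold. CKI was also above Kushen for FLCN, FNIP1 and RRAGC, with log2 fold changes of 0.25 ± 0.05, 0.30 ± 0.06 and 0.16 ± 0.05.

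Among the 5 proton pump genes, ATP6V1A was higher with both CKI and Kushen than with Baituling. ATP6V1A (chr3:113465617-113530903, GRCh37) encodes the catalytic A subunit of the V-ATPase. ATP6V1A had 98.3, 99.0 and 101 CPM with CKI, 85.9, 85.3 and 83.8 CPM with Kushen injection and 46.0, 47.7 and 45.2 CPM with Baituling injection. The 3 groups were fully separated, with CKI highest: the gene was 2.15-fold higher with CKI than with Baituling (log2 fold change 1.10 ± 0.05, edgeR adjusted p = 3.23e-14), 1.84-fold higher with Kushen than with Baituling (log2 fold change 0.88 ± 0.05) and 1.17-fold higher with CKI than with Kushen (log2 fold change 0.23 ± 0.04, edgeR adjusted p = 0.00032). ATP6V1B2, ATP6V1H and ATP6V0D1, encoding the B2 and H subunits of the peripheral domain and the d1 subunit of the membrane domain, were higher with CKI than with either single injection, at log2 fold changes of 0.31 ± 0.05, 0.24 ± 0.05 and 0.21 ± 0.06 against Baituling and 0.33 ± 0.05, 0.19 ± 0.05 and 0.23 ± 0.06 against Kushen. After TMM, Kushen against Baituling did not pass for these 3 genes, with log2 fold changes of -0.03 ± 0.05, 0.05 ± 0.05 and -0.02 ± 0.06. With library totals all 3 passed as higher with Kushen, by 0.19, 0.27 and 0.19 on the log2 scale (adjusted p = 0.00291, 0.000188 and 0.00283), and ATP6V1H passed with upper quartile scaling as well (adjusted p = 0.0449). ATP6AP1, an accessory protein of pump assembly, was lower with Kushen than with Baituling (log2 fold change -0.14 ± 0.05, edgeR adjusted p = 0.0203) although these groups overlapped, and not without Kushen replicate 1 or Baituling replicate 1 or 2 (adjusted p up to 0.109). With library totals its direction turned and the call ended (log2 fold change 0.0737, adjusted p = 0.139), as the call did with upper quartile scaling (adjusted p = 0.195). With Baituling replicate 1 alone, ATP6V0D1 no longer passed for CKI (adjusted p = 0.168).

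The 6 membrane proteins did not move together. LAMP1, one of the main glycoproteins of the lysosomal membrane, had 309, 308 and 322 CPM with CKI, 296, 299 and 312 CPM with Kushen and 315, 315 and 310.1 CPM with Baituling. Its groups overlapped and it passed in no comparison after TMM, with a 95% interval of -0.08 to 0.08 for the log2 fold change of CKI against Baituling; with library totals this fold change was 0.29. LAMP2, its relative that also serves chaperone-mediated autophagy, was higher with CKI and with Kushen than with Baituling by 0.27 ± 0.04 and 0.28 ± 0.04 on the log2 scale. SCARB2, the transport receptor of glucocerebrosidase, was 1.67-fold and 1.71-fold higher, and NPC1, which exports cholesterol, 1.60-fold and 1.497-fold higher. In contrast CD63, a tetraspanin of late endosomes and exosomes, was lower. CD63 had 538, 550.3 and 568 CPM with CKI, 549.7, 551 and 559 CPM with Kushen injection and 669, 623 and 631 CPM with Baituling injection. Every Baituling library exceeded every other, and the log2 fold changes were -0.22 ± 0.04 for CKI and -0.21 ± 0.04 for Kushen, both relative to Baituling; with library totals they became 0.0711 and -0.0011 and neither passed.

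MCOLN1 was the only gene of the 49 that was higher with CKI and lower with Kushen, each compared to Baituling. It encodes TRPML1, the calcium channel of the lysosomal membrane. MCOLN1 had 67.8, 69.8 and 68.0 CPM with CKI, 45.6, 52.8 and 52.7 CPM with Kushen injection and 59.7, 58.1 and 53.7 CPM with Baituling injection. CKI lay above both other groups without overlap, by 0.45 ± 0.06 on the log2 scale over Kushen (edgeR adjusted p = 7.18e-06) and by 0.26 ± 0.06 over Baituling (edgeR adjusted p = 0.000482). Kushen was lower than Baituling by a log2 fold change of -0.18 ± 0.06 (edgeR adjusted p = 0.00985), which turned to 0.0274 with library totals. That last call ended without Kushen replicate 1 (adjusted p = 0.0678) and without Baituling replicate 1 (adjusted p = 0.0578), and the call against Baituling ended with Baituling replicate 1 as the only Baituling library (log2 fold change 0.19, adjusted p = 0.057).

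Proteases split, with 4 of 6 lower and 2 of 6 higher with CKI than with Baituling, although with library totals the fold changes of CTSA and CTSD turned positive. Cathepsin Z (CTSZ), a carboxypeptidase, fell furthest of the 6. CTSZ had 464, 465 and 500.2 CPM with CKI, 476, 532 and 546 CPM with Kushen injection and 748, 719 and 705 CPM with Baituling injection. It was 1.52-fold lower with CKI (log2 fold change -0.61 ± 0.05, edgeR adjusted p = 1.24e-09) and 1.40-fold lower with Kushen (log2 fold change -0.48 ± 0.05) than with Baituling, without overlap. Cathepsin B (CTSB), a cysteine protease, was graded across the groups. CTSB had 481, 513 and 537 CPM with CKI, 562, 601 and 601 CPM with Kushen injection and 695, 677 and 664 CPM with Baituling injection. All 3 groups were separated, and the log2 fold changes were -0.41 ± 0.05 for CKI against Baituling, -0.21 ± 0.05 for Kushen against Baituling, which turned to 0.0046 with library totals, and -0.20 ± 0.05 for CKI against Kushen. Cathepsin A (CTSA), which protects neuraminidase and beta-galactosidase in a complex, had 235, 246 and 249 CPM with CKI, 219.7, 241 and 251 CPM with Kushen and 286, 277 and 275 CPM with Baituling. It was lower with both CKI and Kushen than with Baituling, by log2 fold changes of -0.20 ± 0.05 and -0.24 ± 0.05, and CKI and Kushen overlapped. Neither call against Baituling held with library totals (log2 fold changes 0.0867 and -0.0247). CKI then came out higher than Kushen (log2 fold change 0.11, edgeR adjusted p = 0.0378).

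Cathepsin D (CTSD), the main aspartic protease of the lysosome, was lower with CKI than with either single injection. CTSD had 912, 1006 and 1034 CPM with CKI, 1024, 1194 and 1305 CPM with Kushen injection and 1204, 1167 and 1119 CPM with Baituling injection. The Kushen libraries spread widely, replicate 1 lying within the range of CKI, and log2 fold changes of CKI were -0.25 ± 0.07 against Kushen (edgeR adjusted p = 0.00416) and -0.24 ± 0.07 against Baituling (edgeR adjusted p = 0.00247). With library totals the latter was 0.0456 and did not pass, and Kushen came out higher than Baituling (log2 fold change 0.22, adjusted p = 0.00145). The proteases that were higher than with Baituling were CTSL and TPP1. Cathepsin L (CTSL), a cysteine endopeptidase, was 1.43-fold higher with CKI and 1.32-fold higher with Kushen. TPP1, a tripeptidyl peptidase, had 135, 142 and 139.9 CPM with CKI, 163, 166 and 178 CPM with Kushen and 94.98, 95.6 and 98.2 CPM with Baituling. Here Kushen was highest: TPP1 was 1.76-fold higher with Kushen and 1.45-fold higher with CKI than with Baituling, and lower with CKI than with Kushen by a log2 fold change of -0.28 ± 0.04 (edgeR adjusted p = 5.35e-05).

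The 9 genes of glycan and lipid breakdown held some of the largest differences in both directions. NEU1 (chr6:31825436-31830682, GRCh37) encodes the lysosomal sialidase. NEU1 had 284, 302 and 306 CPM with CKI, 251, 274 and 276 CPM with Kushen injection and 149, 146 and 143 CPM with Baituling injection. It was 2.04-fold higher with CKI (log2 fold change 1.03 ± 0.05, edgeR adjusted p = 1.55e-13) and 1.83-fold higher with Kushen than with Baituling. GLA (chrX:100648261-100663000, GRCh37) encodes alpha-galactosidase A, which removes terminal galactose from glycolipids. GLA had 86.8, 80.4 and 86.1 CPM with CKI, 60.4, 61.3 and 57.8 CPM with Kushen injection and 44.5, 43.3 and 38.1 CPM with Baituling injection. The 3 groups formed separate steps, with CKI 1.41-fold above Kushen (log2 fold change 0.50 ± 0.05, edgeR adjusted p = 1.05e-06), the largest rise of CKI over Kushen among the 49 genes, and Kushen 1.42-fold above Baituling. CKI was 2.01-fold above Baituling at a log2 fold change of 1.01 ± 0.06, close to the fold threshold. NEU1 fell below that threshold with Baituling replicate 1 alone, as did GLA, and GLA also without CKI replicate 1, CKI replicate 3 or Baituling replicate 3.

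PSAP, the precursor of the saposins that present lipids to hydrolases, and ASAH1, acid ceramidase, were higher with both CKI and Kushen. For PSAP the log2 fold changes against Baituling were 0.80 ± 0.04 with CKI and 0.84 ± 0.04 with Kushen, and the interval of CKI against Kushen was -0.12 to 0.05. For ASAH1 they were 0.74 ± 0.05 and 0.77 ± 0.05. NPC2, the soluble partner of NPC1 in cholesterol export, passed in no comparison after TMM, and its interval for CKI against Baituling was -0.08 to 0.09. With library totals it was higher with CKI and with Kushen than with Baituling, by 0.29 and 0.24 on the log2 scale (adjusted p = 1.58e-06 and 2.01e-05), and with upper quartile scaling higher with Kushen (adjusted p = 0.0391).

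GAA (chr17:78075332-78093680, GRCh37), the alpha-glucosidase that degrades lysosomal glycogen, showed the largest fall of CKI against both single injections. GAA had 74.6, 78.9 and 79.1 CPM with CKI, 98.5, 112 and 131 CPM with Kushen injection and 127, 128 and 119 CPM with Baituling injection. CKI lay below both without overlap, 1.61-fold below Baituling (log2 fold change -0.69 ± 0.07, edgeR adjusted p = 4.23e-08) and 1.47-fold below Kushen (log2 fold change -0.55 ± 0.07, edgeR adjusted p = 6.18e-06). Kushen and Baituling overlapped (log2 fold change -0.13 ± 0.07, edgeR adjusted p = 0.0979), and Kushen was lower without Kushen replicate 3 (log2 fold change -0.23, adjusted p = 0.00144). HEXA, the alpha subunit of beta-hexosaminidase, was in contrast lower with both CKI and Kushen than with Baituling. HEXA had 31.1, 28.2 and 29.9 CPM with CKI, 32.7, 31.2 and 32.6 CPM with Kushen injection and 46.6, 47.4 and 40.6 CPM with Baituling injection. Its log2 fold changes were -0.59 ± 0.06 for CKI and -0.48 ± 0.06 for Kushen, with no overlap between Baituling and the others. GUSB, beta-glucuronidase, had 103, 106 and 112 CPM with CKI, 120.1, 129 and 131 CPM with Kushen and 139.9, 136 and 138 CPM with Baituling. CKI was below both, by log2 fold changes of -0.24 ± 0.05 against Kushen and -0.36 ± 0.05 against Baituling, the latter becoming -0.0778 with library totals, where it did not pass (adjusted p = 0.101). Kushen against Baituling stood near the limit (log2 fold change -0.12 ± 0.05, edgeR adjusted p = 0.0232). This call was lost without Kushen replicate 1 (adjusted p = 0.102), without Baituling replicate 1 (adjusted p = 0.0768) and without Baituling replicate 3 (adjusted p = 0.0513). With Baituling replicate 1 alone the log2 fold change was -0.15. With library totals the direction turned and the call ended (log2 fold change 0.0887, adjusted p = 0.0649), as the call did with upper quartile scaling (adjusted p = 0.282). GLB1, beta-galactosidase, was lower with CKI than with Kushen by a log2 fold change of -0.19 ± 0.05 and did not pass against Baituling. It was lower than with Baituling without CKI replicate 3 or Baituling replicate 2 (adjusted p = 0.0493 and 0.0286) and with Baituling replicate 1 alone (adjusted p = 0.0232), but higher with library totals (log2 fold change 0.19, adjusted p = 0.001), where CKI against Kushen no longer passed (adjusted p = 0.0571).

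**Figure D3:**
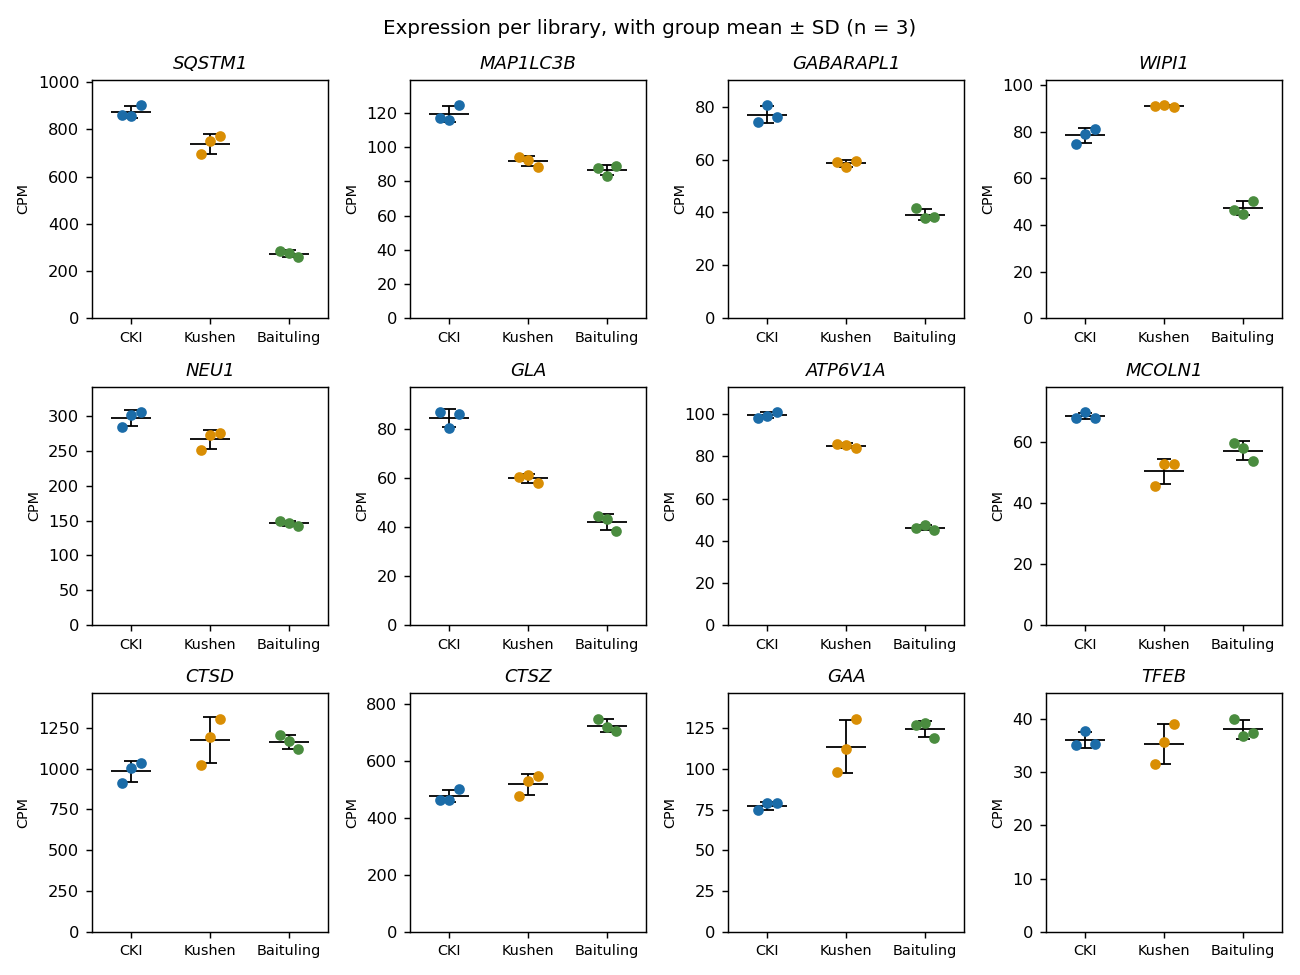
Points are CPM values (y axis, from 0) of single libraries in each treatment group (x axis) for 12 of the 49 genes, with the mean as a bar and the SD as whiskers (n = 3). SQSTM1 lies between 258 and 284 CPM with Baituling and at 694 CPM or more in every other library, GAA and CTSZ are lowest with CKI on average, and the TFEB groups overlap.

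All 5 genes of autophagosome initiation were higher with CKI than with Baituling, and 4 of them with Kushen, where 39.1% and 35.6% of all genes were higher. Of 16 other initiation genes tested, 13 were higher and 1 lower with CKI, and 11 were higher and 4 lower with Kushen. ULK1 encodes the kinase that starts autophagosome formation. ULK1 had 78.9, 77.4 and 77.1 CPM with CKI, 70.2, 70.9 and 79.4 CPM with Kushen injection and 46.8, 50.2 and 52.0 CPM with Baituling injection. It was 1.57-fold higher with CKI (log2 fold change 0.65 ± 0.06, edgeR adjusted p = 2.51e-09) and 1.48-fold higher with Kushen (log2 fold change 0.57 ± 0.06) than with Baituling. CKI and Kushen overlapped for ULK1, and the interval of their log2 difference was -0.03 to 0.19. WIPI1, which binds the phosphatidylinositol 3-phosphate of the nascent membrane, was highest with Kushen. WIPI1 had 74.9, 79.1 and 81.2 CPM with CKI, 91.2, 91.3 and 90.4 CPM with Kushen injection and 46.3, 44.7 and 50.5 CPM with Baituling injection. No groups overlapped; WIPI1 was 1.93-fold higher with Kushen (log2 fold change 0.95 ± 0.05) and 1.66-fold higher with CKI than with Baituling, and was lower with CKI than with Kushen by a log2 fold change of -0.22 ± 0.05 (edgeR adjusted p = 0.00169). ATG9A, the lipid scramblase of the vesicles that seed the membrane, was higher with CKI than with Kushen by 0.25 ± 0.05 and than with Baituling by 0.44 ± 0.05 on the log2 scale. BECN1, the beclin 1 subunit of the lipid kinase complex, was 1.31-fold and 1.26-fold higher with CKI and Kushen than with Baituling, and UVRAG, an alternative subunit of that complex, passed for CKI (log2 fold change 0.25 ± 0.07) but not for Kushen (log2 fold change 0.09 ± 0.07), which passed with Baituling replicate 1 alone (adjusted p = 0.0254) and with library totals (adjusted p = 0.00131).

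Genes of ATG conjugation had the narrowest range of log2 fold changes of the 9 roles in both comparisons with Baituling. ATG5, the acceptor of ATG12, and ATG12 itself were higher with both CKI and Kushen than with Baituling, at log2 fold changes of 0.30 ± 0.06 and 0.14 ± 0.06 for ATG5 and 0.18 ± 0.05 and 0.20 ± 0.05 for ATG12. The call of ATG5 for Kushen was lost when any single library except CKI replicate 1 and Kushen replicate 3 was left out (adjusted p up to 0.213). DESeq2 and limma-voom did not make this call either (adjusted p = 0.0797 and 0.0516). With Baituling replicate 1 alone it was lost too (adjusted p = 0.111), as were both calls of ATG12 (adjusted p = 0.146 and 0.0997). ATG7 passed with CKI (log2 fold change 0.16 ± 0.07, edgeR adjusted p = 0.0397) with overlapping groups, and not without CKI replicate 2 or 3 or Baituling replicate 1 or 3 (adjusted p up to 0.189), nor with Baituling replicate 1 alone (adjusted p = 0.171). Kushen against Baituling passed for ATG7 with library totals (log2 fold change 0.34) and with upper quartile scaling (adjusted p = 0.0162). ATG16L1, which directs the conjugate to the membrane, passed in no comparison after TMM, its interval for CKI against Baituling being -0.13 to 0.15. With library totals it was higher with CKI than with Baituling (log2 fold change 0.30, adjusted p = 0.000304) and than with Kushen (adjusted p = 0.0461).

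Within the ATG8 family, MAP1LC3B, GABARAPL1 and GABARAPL2 were higher with CKI than with Baituling and GABARAP, the lowest of the 4 in CPM and per kilobase, was lower. MAP1LC3B encodes LC3B, the usual marker of autophagosomes. MAP1LC3B had 117, 116 and 124 CPM with CKI, 94.3, 92.2 and 88.6 CPM with Kushen injection and 87.8, 83.3 and 88.9 CPM with Baituling injection. CKI was 1.30-fold above Kushen (log2 fold change 0.38 ± 0.05, edgeR adjusted p = 3.16e-06) and 1.38-fold above Baituling (log2 fold change 0.46 ± 0.05) with no overlap, whereas Kushen and Baituling overlapped (log2 fold change 0.08 ± 0.05, edgeR adjusted p = 0.126; 0.0464 without Kushen replicate 3, 0.00758 with upper quartile scaling and 1.25e-05 with library totals). GABARAPL1 was graded in all 3 comparisons. GABARAPL1 had 74.4, 80.5 and 76.0 CPM with CKI, 59.2, 57.2 and 59.4 CPM with Kushen injection and 41.5, 37.8 and 38.3 CPM with Baituling injection. It was 1.96-fold higher with CKI than with Baituling (log2 fold change 0.97 ± 0.05, edgeR adjusted p = 2.47e-12), 1.49-fold higher with Kushen than with Baituling and 1.31-fold higher with CKI than with Kushen (log2 fold change 0.39 ± 0.05). GABARAPL2 was 1.73-fold higher with CKI and 1.68-fold higher with Kushen, and the interval of CKI against Kushen was -0.06 to 0.13. GABARAP had 9.65, 9.71 and 10.9 CPM with CKI, 11.1, 9.93 and 10.6 CPM with Kushen injection and 15.6, 14.3 and 10.3 CPM with Baituling injection. GABARAP was lower with CKI than with Baituling (log2 fold change -0.42 ± 0.12, edgeR adjusted p = 0.00347), but Baituling replicate 3 lay within the range of the CKI libraries. For Kushen the log2 fold change was -0.36 ± 0.12 and the call was lost without Baituling replicate 1 (adjusted p = 0.125). With library totals both calls ended, at log2 fold changes of -0.13 for CKI and -0.14 for Kushen (adjusted p = 0.311 and 0.268). MAP1LC3B and GABARAPL1 have near-identical copies, MAP1LC3B2 and GABARAPL3, so that their values are uncertain to the extent that reads were split between copies.

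All 4 autophagy receptors were higher with CKI and with Kushen than with Baituling, where 39.1% and 35.6% of all genes were higher. This did not hold for every receptor: of 9 other autophagy receptors tested, 5 were higher and 3 lower in each of these comparisons. SQSTM1 (chr5:179233398-179265078, GRCh37) encodes p62, which binds ubiquitinated cargo and LC3. SQSTM1 had 862, 858 and 902 CPM with CKI, 694, 749 and 773 CPM with Kushen injection and 284, 278 and 258 CPM with Baituling injection. The lowest CKI or Kushen library was above the highest Baituling library, and the CKI and Kushen groups were also separated. SQSTM1 was 3.20-fold higher with CKI than with Baituling (log2 fold change 1.68 ± 0.05, edgeR adjusted p = 1.8e-16), 2.70-fold higher with Kushen than with Baituling (log2 fold change 1.43 ± 0.05, edgeR adjusted p = 2.83e-15) and 1.18-fold higher with CKI than with Kushen (log2 fold change 0.24 ± 0.05, edgeR adjusted p = 0.000397). With Baituling replicate 1 as the only Baituling library the first 2 log2 fold changes were 1.61 and 1.37. NBR1, a receptor related to p62, was 1.76-fold and 1.64-fold higher with CKI and Kushen than with Baituling. TAX1BP1 and OPTN, receptors of ubiquitinated cargo, followed with 1.41-fold and 1.35-fold for TAX1BP1 and 1.22-fold and 1.24-fold for OPTN. The libraries were unstranded, and SQSTM1 shares exon sequence with MRNIP on the opposite strand. The same holds, with other partners, for NPC1, CTSA, CTSD, TPP1, HEXA, ATP6V1A, BECN1, ATG7, GABARAP and TAX1BP1, so reads from the shared stretches of these 11 genes cannot be told apart from those of their partners.

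**Figure D4:**
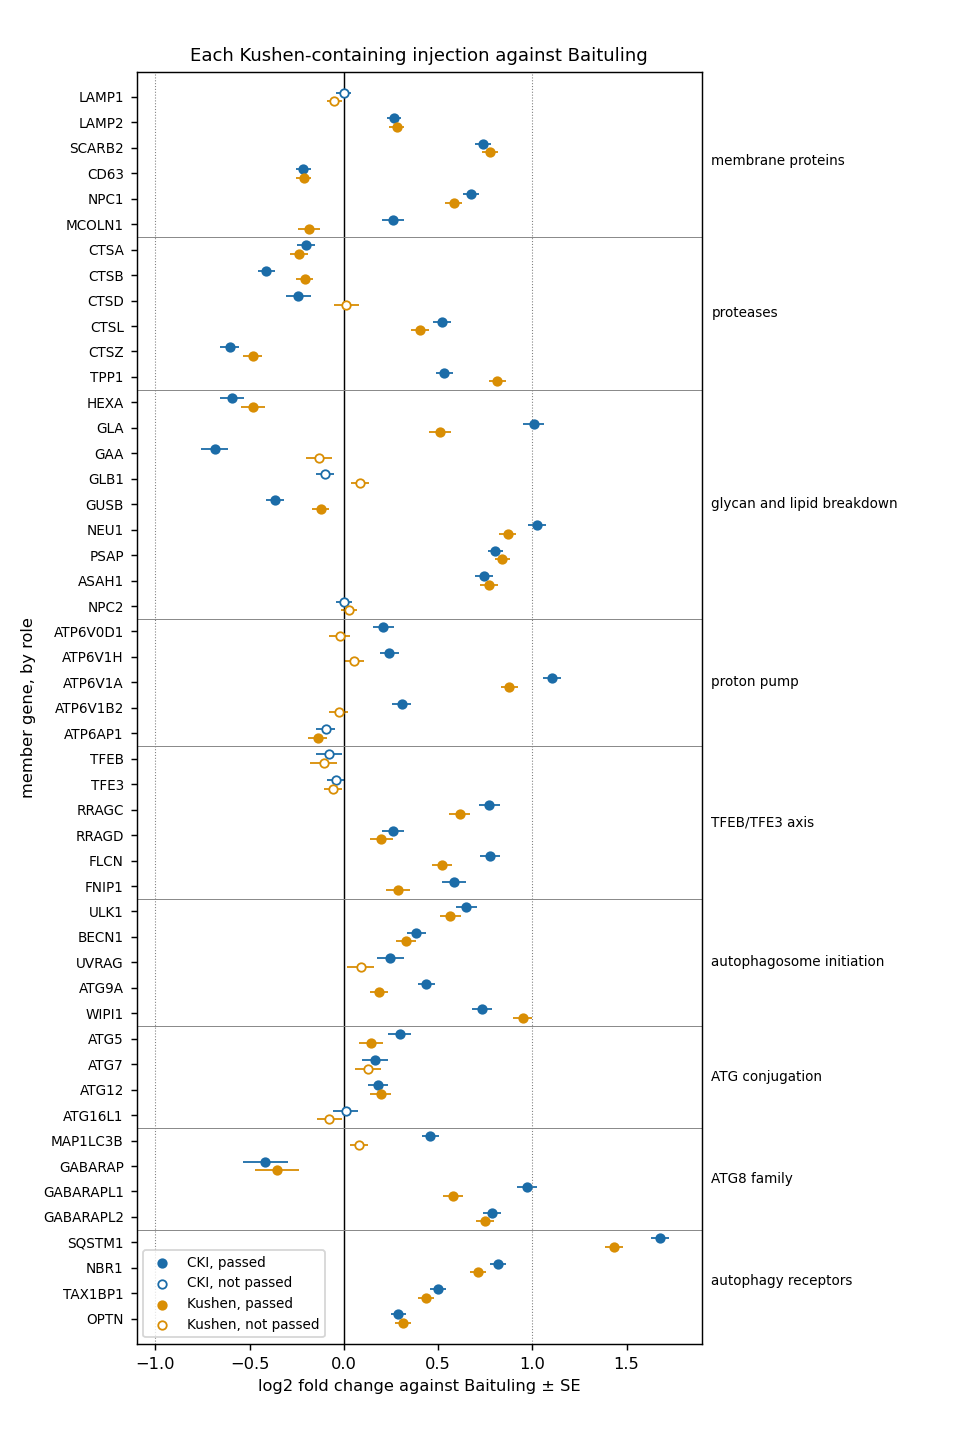
Log2 fold change against Baituling ± SE (x axis) is plotted for each of the 49 genes (y axis, by role), with CKI in blue and Kushen in orange; filled points had an adjusted p under 0.05 and dotted lines mark the fold threshold. SQSTM1 stands furthest right for both injections, and GAA, CTSZ and HEXA stand furthest left for CKI.

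The 3 comparisons were then set side by side for each gene. The resulting patterns were counted for the listed genes only. No share of all genes with the same pattern is given, and whether these counts differ from such a share was not tested. In 12 genes both CKI and Kushen were higher than Baituling and CKI was higher than Kushen as well: SQSTM1, ATP6V1A, NEU1, GLA, GABARAPL1, CTSL, NBR1, RRAGC, FLCN, FNIP1, ATG5 and ATG9A. The step from Kushen to CKI was lost for 4 of these when a single library was left out: for ATG5 and CTSL on leaving out any library except CKI replicate 1 and Kushen replicate 1 (adjusted p up to 0.28 and 0.278), for NBR1 on leaving out any except Kushen replicates 1 and 2 (up to 0.279), and for RRAGC on leaving out CKI replicate 1 or 3 or Kushen replicate 3 (up to 0.107). With all 9 libraries, the step of ATG5, CTSL and NBR1 was also lost in DESeq2 (adjusted p = 0.123, 0.115 and 0.0938). It was lost too in edgeR with the replicate number as a block (adjusted p = 0.0684, 0.0529 and 0.0682). For CTSL the main edgeR fit stood at the limit (adjusted p = 0.05). ATG9A did not pass for Kushen with Baituling replicate 1 alone (adjusted p = 0.0667). In another 12, LAMP2, SCARB2, NPC1, PSAP, ASAH1, RRAGD, ULK1, BECN1, ATG12, GABARAPL2, TAX1BP1 and OPTN, both were higher than Baituling and CKI against Kushen did not pass, although with library totals it passed for NPC1, ULK1 and TAX1BP1 (adjusted p = 0.0028, 0.0243 and 0.0156). TPP1 and WIPI1 were highest with Kushen. In 7 genes both were lower than Baituling: CTSB and GUSB, where CKI was also lower than Kushen, and CD63, CTSA, CTSZ, HEXA and GABARAP, where it was not. CTSZ did pass as lower with CKI than with Kushen in DESeq2 and with upper quartile scaling (adjusted p = 0.034 and 0.0421). It also passed without CKI replicate 3, Kushen replicate 1 or Baituling replicate 1 (edgeR adjusted p = 0.0282, 0.00221 and 0.0322). With library totals neither call against Baituling held for CD63, CTSA, GUSB and GABARAP, nor the Kushen call for CTSB. Higher with CKI than with either single injection, without Kushen being above Baituling after TMM, were MAP1LC3B, ATP6V0D1, ATP6V1B2, ATP6V1H and MCOLN1. With library totals Kushen was above Baituling for MAP1LC3B, ATP6V0D1, ATP6V1B2 and ATP6V1H, at log2 fold changes of 0.29, 0.19, 0.19 and 0.27. CTSD and GAA were lower with CKI than with either single injection, although CTSD did not pass against Baituling with library totals. Passing in none of the 3 comparisons after TMM were LAMP1, NPC2, TFEB, TFE3 and ATG16L1, all 5 of which were higher with CKI than with Baituling under library totals. As for the 5 genes with the CLEAR core in their promoter windows, MCOLN1 and ATP6V0D1 were higher with CKI than with either single injection, GAA was lower than either, CTSA was lower than with Baituling and LAMP1 passed in no comparison. With library totals CTSA did not pass against Baituling but was higher with CKI than with Kushen (edgeR adjusted p = 0.0378). LAMP1 then passed in all 3 comparisons.

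**Figure D5:**
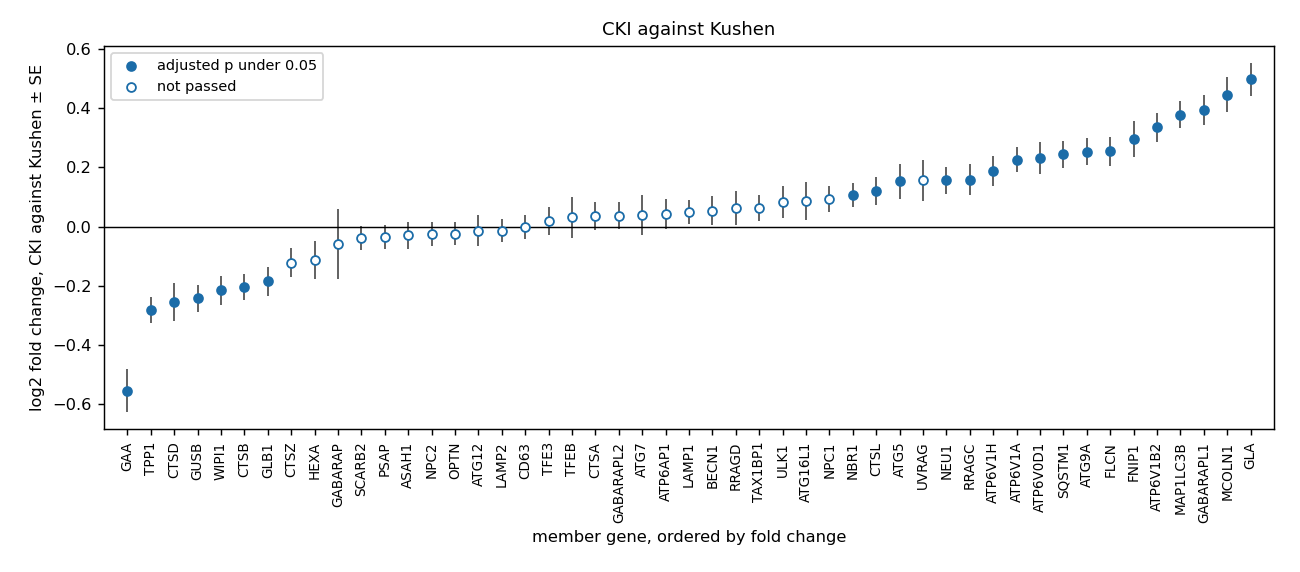
Log2 fold change of CKI against Kushen ± SE (y axis) for the 49 genes in order of size (x axis), with filled points where the adjusted p was under 0.05. GAA at -0.55 and GLA at 0.50 are the ends of the range, and 25 genes did not pass.

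A second list of 125 lysosome and autophagy genes, listed by role, was used for comparison; 124 were in the table and 121 were tested. With CKI compared to Baituling 67 were higher (55.4%, all genes 39.1%) and 33 lower (27.3%, all genes 37.0%). Past the fold threshold were 13 higher genes, a share of 10.7% next to 11.2% of all genes, and 4 lower genes (3.31% next to 7.91%). With Kushen compared to Baituling 68 were higher (56.2%, all genes 35.6%) and 34 lower (28.1%, all genes 36.1%), with 7 higher genes past the fold threshold (5.79% next to 8.50% of all genes) and 3 lower (2.48% next to 6.73%). The share of higher genes past the fold threshold was thus near or below that of all genes. Library totals gave 90 higher and 17 lower for CKI, with 20 and 2 past the fold threshold, and 80 and 17 for Kushen, with 18 and 2. Of those that passed, 84.1% and 82.5% were then higher, next to 71.6% and 67.3% of all genes that passed. No share of all genes is given past the fold threshold under this scaling, nor for Baituling replicate 1 alone. With Baituling replicate 1 as the only Baituling library the numbers were 62 higher and 27 lower for CKI, with 13 and 4 past the fold threshold, and 58 and 29 for Kushen, with 8 and 4. LAMP3, an inducible LAMP family member, differed most. LAMP3 had 5.33, 4.67 and 5.06 CPM with CKI, 3.14, 2.91 and 3.99 CPM with Kushen injection and 0.342, 0.329 and 0.552 CPM with Baituling injection. Its log2 fold changes were 3.62 ± 0.24 for CKI and 3.03 ± 0.26 for Kushen, against Baituling libraries with as few as 6 counts. VMP1, which shapes endoplasmic reticulum contacts with the forming autophagosome, was abundant in every library and 2.87-fold higher with CKI and 2.28-fold higher with Kushen. RETREG1, a receptor for endoplasmic reticulum autophagy, and MAP1LC3B2 also passed the fold threshold in both comparisons, at log2 fold changes of 2.77 ± 0.41 and 2.44 ± 0.43 for RETREG1 and 1.78 ± 0.60 and 1.72 ± 0.61 for MAP1LC3B2, but had as few as 2 counts in a library. The other 3 past it in both were MCOLN3, a relative of MCOLN1, RB1CC1, which encodes the scaffold FIP200 of the ULK1 complex, and ARSA, arylsulfatase A. MCOLN3 was 2.36-fold higher with CKI and 2.35-fold higher with Kushen, RB1CC1 2.46-fold and 2.22-fold, and ARSA 2.16-fold and 2.24-fold. SLC17A5, LGMN, ATP6V0A1, ATG4A, CCPG1 and EPG5 were past it with CKI but not with Kushen, a difference that was not itself above the fold threshold for any of them.

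Past the fold threshold in the other direction were CTSS, CTSC, VAMP8 and, for CKI, CTSO. CTSS, a cysteine protease of antigen presentation, had 9.06, 9.43 and 9.83 CPM with CKI, 8.73, 7.43 and 7.01 CPM with Kushen and 29.6, 28.8 and 25.8 CPM with Baituling. Its log2 fold changes were -1.57 ± 0.09 and -1.86 ± 0.09. VAMP8, a SNARE protein of autophagosome fusion with lysosomes, was 2.74-fold lower with CKI and 2.54-fold lower with Kushen. CTSC, which activates serine proteases, was 2.15-fold and 2.02-fold lower, and CTSO 2.01-fold lower with CKI.

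Between CKI and Kushen, 37 genes of the second list were higher with CKI (30.6%, all genes 19.6%) and 24 were lower (19.8%, all genes 20.2%). In edgeR 0 were past the fold threshold. With library totals 51 were higher and 13 lower, and 79.7% of those that passed were higher, next to 69.7% over all genes. After TMM the log2 fold changes of the 121 tested genes ran from -0.69 to 0.61. Of 12 further proton pump genes, 8 were higher and 2 lower with CKI, and of 16 further genes of autophagosome initiation 9 were higher and 1 lower. Of 24 further genes of glycan and lipid breakdown, 1 was higher and 11 were lower. In the other roles, 4 of 14 membrane proteins were higher and 3 lower, 2 and 2 of 9 proteases, 5 and 2 of 15 genes of the TFEB/TFE3 axis, 2 and 0 of 6 of ATG conjugation, 1 and 0 of 3 of the ATG8 family, 1 and 0 of 9 receptors, and 4 and 3 of 13 genes of fusion between autophagosome and lysosome. Among the 49 genes the counts were 4 higher and 0 lower of 5 for the proton pump, 1 and 1 of 5 for initiation, and 2 and 3 of 9 for glycan and lipid breakdown. Named after their values were seen, ATP6V0A1, a membrane-domain subunit of the V-ATPase, had the highest log2 fold change of the 12 proton pump genes, 0.48 ± 0.05, and NAGLU, an enzyme of heparan sulphate breakdown, the lowest of the 24, -0.66 ± 0.06.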

How the data were processed

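RNA from MDA-MB-231 cells was sequenced as unstranded paired-end libraries, 3 per injection. Per the study's methods and processing notes, reads were trimmed with Trim Galore (0.3.7) and aligned to hg19 with STAR (2.5.3a). The authors deposited 1 table of raw counts per Ensembl gene. The counting program, the annotation and the handling of reads that match several genes are not given in the sources used here. Of 24566 rows, 222 repeated an Ensembl gene and were dropped.

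Symbols came from GENCODE for 23742 genes and from RefSeq for 557. Genes passing filterByExpr (minimum count 10, minimum total count 15) were fitted over all 9 libraries with edgeR 4.0.16 (R 4.3.3, TMM, quasi-likelihood test, group as the only factor); the common biological coefficient of variation was 4.53%. CPM values use TMM-scaled library sizes, and CPM per kilobase the exons of the Ensembl canonical transcript. The SE is the log2 fold change divided by the square root of F. DESeq2 (1.42.0) and limma-voom (3.58.1) were alternatives. The scripts were tested on simulated counts in which few genes differed, and only in CKI. That does not test the choice of scaling. Intervals and p-values cover these libraries only.

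The 49 genes, the second list and the tests were chosen with earlier results of these data known. Values per library are given, in each comparison, for the 4 genes that rose and the 4 that fell most among those that passed without overlap, and for LAMP1, CTSD, ATP6V1A, TFEB, TFE3, SQSTM1, MAP1LC3B, GABARAPL1 and ULK1. In the second list, CD68, ACP5 and TFEC had too few counts to be tested and NCOA4 was not analysed here; nor was the marker PECAM1.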

Additional observations from a re-analysis of the deposited data

How the results depend on the processing

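Of 339 recomputed counts and medians, 318 stayed close under other scaling, filtering or tests and without single libraries. Close means within 1.5 times the reported count, or for a median within 0.0213 on the log2 scale (1 SD between libraries). That limit on counts is wide: with library totals the 49 genes higher with CKI than with Kushen went from 17 to 25 and were tallied as close. Scaling to library totals changed the counts and medians most. The median log2 fold change of the 49 genes became 0.12 between CKI and Kushen (all genes 0.08). Relative to Baituling it became 0.58 with CKI and 0.40 with Kushen (all genes 0.32 and 0.23). The genes called lower became 4 and 2 in the comparisons with Baituling, and those past the fold threshold 13 and 6. This scaling also took the genes of the second list called lower to 13, 17 and 17, in the order of the medians. Among genes that passed under either scaling it also turned the direction, for CKI against Baituling, of ATP6AP1 (0.19), GLB1 (0.19), CD63 (0.0711), CTSA (0.0867), CTSD (0.0456), LAMP1 (0.29), TFE3 (0.25) and TFEB (0.21), and for Kushen against Baituling of ATP6AP1 (0.0737), ATP6V0D1 (0.19), ATP6V1B2 (0.19), CTSB (0.0046), GUSB (0.0887), LAMP1 (0.16), MCOLN1 (0.0274) and TFE3 (0.15); this follows from the shift of all genes given above. Upper quartile scaling gave medians of 0.36 and 0.25 against Baituling, with 2 genes past the threshold for Kushen, and at least 10 counts in every library gave medians of 0.33 and 0.22. A test against the fold threshold itself (glmTreat) left 2 genes for CKI, SQSTM1 and ATP6V1A. With Baituling replicate 1 as the only Baituling library, chosen after seeing the data, 2 were past the threshold for CKI and the median for Kushen was 0.16; the lone library is then assumed to vary like the other groups.

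Leaving out single libraries gave medians of 0.26 to 0.30 for CKI and 0.16 to 0.21 for Kushen against Baituling. The number of genes lower with Kushen than with Baituling ran from 5, without Baituling replicate 1, to 11. Genes higher with CKI than with Kushen numbered 13 to 17. Libraries with the same replicate number did not deviate together (correlations from -0.075 to 0.123); with that number as a block, 14 genes were higher and 7 lower in CKI against Kushen; against Baituling, CKI gave 33 higher and 9 lower, Kushen 25 and 9. DESeq2 gave 14 and 8, 32 and 9, and 25 and 9, with 3 past the fold threshold for CKI against Baituling. The depth of 20144628 to 23782071 counts limits low genes such as GABARAP, LAMP3 and RETREG1 most.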
